A study of Mus musculus with 41 samples.

Results

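The measurements described here are pyridine borane sequencing (PB-seq) profiles of 5-formylcytosine (5fC) and 5-carboxylcytosine (5caC) at the Il4 locus of Th2 cells after inducible deletion of Tdg. The samples were chosen by their labels as the PB-seq samples of TDG iKO and TDG WT Th2 cells of the first differentiation cycle with ERT2-Cre, which gave 4 of the 41 samples of the series. The labels number 2 replicates per genotype, but both carry the name of 1 library, so each pair was taken as 2 runs of that library with reads added. This left 2 libraries, 1 of TDG iKO and 1 of TDG WT cells.

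The study followed DNA demethylation in mouse T cells and macrophages that lacked TET enzymes or TDG. TDG iKO mice carried Tdg fl/fl alleles, an ERT2-Cre transgene that is activated by tamoxifen, and a Rosa26-H2B-EGFP/GPI-mCherry LSL reporter. TDG WT mice, labelled wild type, carried the floxed alleles and the reporter without ERT2-Cre, as the study's scheme shows. Mice of both genotypes were on the C57BL/6 background, were 8 to 16 weeks old and received tamoxifen, at 2 mg per intraperitoneal injection. Naïve CD4+ T cells from spleen and lymph nodes were sorted as CD25-CD62L hiCD44 lo, with EGFP as the sign of Cre activity (how TDG WT cells, which lack Cre, were gated for it is not described), and stimulated through CD3 and CD28 by coated antibodies at 1 μg/ml with 1000 U/ml IL-4 and an antibody to IFN-γ for 2 days, and then with 20 U/ml IL-2. The expansion in IL-2 lasted 3 days per the labels and 4 days per the methods. The amplicons cover Il4 and its upstream region and do not read Tdg, so the deletion itself could not be checked in these data.

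TET enzymes oxidise 5-methylcytosine (5mC) stepwise to 5-hydroxymethylcytosine (5hmC), 5fC and 5caC. TDG recognises 5fC and 5caC opposite guanine and excises them, and base excision repair then restores an unmodified cytosine. Pyridine borane reduces 5fC and 5caC to dihydrouracil, which is read as T after PCR, while C, 5mC and 5hmC are read as C.

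The 8 amplicons of the Il4 locus held 47 CpGs, numbered along the direction of Il4 transcription. Il4 lies on the minus strand of chromosome 11 (mm9, chr11:53416484-53432171). CpGs 1 to 17 lay upstream of the gene in the conserved non-coding sequence CNS1, an enhancer region between Il4 and Il13, in overlapping amplicons at chr11:53440552-53440800, chr11:53440396-53440573 and chr11:53440233-53440419. CpGs 18 to 21 lay in the promoter (chr11:53432389-53432583) and CpGs 22 to 28 in exon 1 (chr11:53431960-53432290), the first pair of these in its untranslated part. CpGs 29 to 33 in intron 1 and 34 to 37 in exon 2 shared an amplicon (chr11:53431630-53431948). The 3′ region of the hypersensitive site HSII in intron 2 (chr11:53430150-53430347) held CpGs 38 to 42. The last amplicon (chr11:53427375-53427536) held CpGs 43 to 46 in exon 3 and CpG47 just beyond it in intron 3.

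Ordinary primers copy both strands of an amplicon, so reads of the strand opposite to a modified cytosine always show C there. To allow for this, C reads entered the level of 5fC + 5caC, the percentage of T, with a factor of 0.5, for the minus and the plus strand separately. Over the 94 strand-specific CpG positions the TDG iKO library held 1344341 reads with C or T, 596445 from run 1 and 747896 from run 2. The TDG WT library held 1361933, with 643624 from run 1 and 718309 from run 2. The median per position was 12772.5 reads in TDG iKO (329 to 27837) and 13541.5 in TDG WT (304 to 29147), and no position fell under the minimum of 100 reads in either run. Intervals are 95% Wilson (levels) or Newcombe (differences) intervals, those of mean differences over all CpGs are 95% normal intervals from the summed binomial variances of the CpGs, and where no T was read the upper limit given is that of 3 T reads over the reads after the factor of 0.5. These cover counting error only, since reads were made by PCR without molecular identifiers and several can stem from 1 molecule. With 1 library per genotype each test compares these libraries and not the conditions, and the spread between mice or cultures is unknown.

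The first question was whether 5fC and 5caC differed between TDG iKO and TDG WT cells. On the minus strand the mean level over the 47 CpGs was 1.55% and 1.39% in the TDG iKO runs and 0.491% and 0.330% in the TDG WT runs. On the plus strand it was 2.04% and 1.68% in the TDG iKO runs and 0.601% and 0.320% in the TDG WT runs. Both TDG iKO runs thus lay above both TDG WT runs on either strand. With the runs added, the TDG iKO mean was higher by 1.05 points on the minus strand (1.00 to 1.11) and by 1.32 points on the plus strand (1.25 to 1.39). The added level of TDG iKO exceeded that of TDG WT at 37 CpGs of the minus strand and 39 of the plus strand. CpGs were called by Fisher's exact test, two-sided, with Benjamini-Hochberg adjustment over the CpGs of a strand, at an adjusted p under 0.05 and a difference of at least 1 point. TDG iKO was called higher at 17 of 47 CpGs on the minus strand (36.2%) and at 20 of 47 on the plus strand (42.6%). The called differences ranged from 1.00 to 5.22 points on the minus strand and from 1.41 to 6.53 points on the plus strand, and every called CpG was higher in run 1 and in run 2. No CpG was called lower on either strand, 0 of 47 each. Without the minimum of 1 point 14 more were higher on the minus strand and 4 were lower (CpG1, CpG32, CpG40 and CpG42). On the plus strand 10 more were higher and 2 were lower (CpG35 and CpG44). Of the 47 CpGs, 16 were called on both strands, 1 on the minus strand only (CpG10) and 4 on the plus strand only (CpG8, CpG15, CpG18 and CpG31). These 21 CpGs all lay among CpGs 1 to 31, from CNS1 to the middle of intron 1, and the 16 CpGs from CpG32 to CpG47 held 0.

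**Figure D1:**
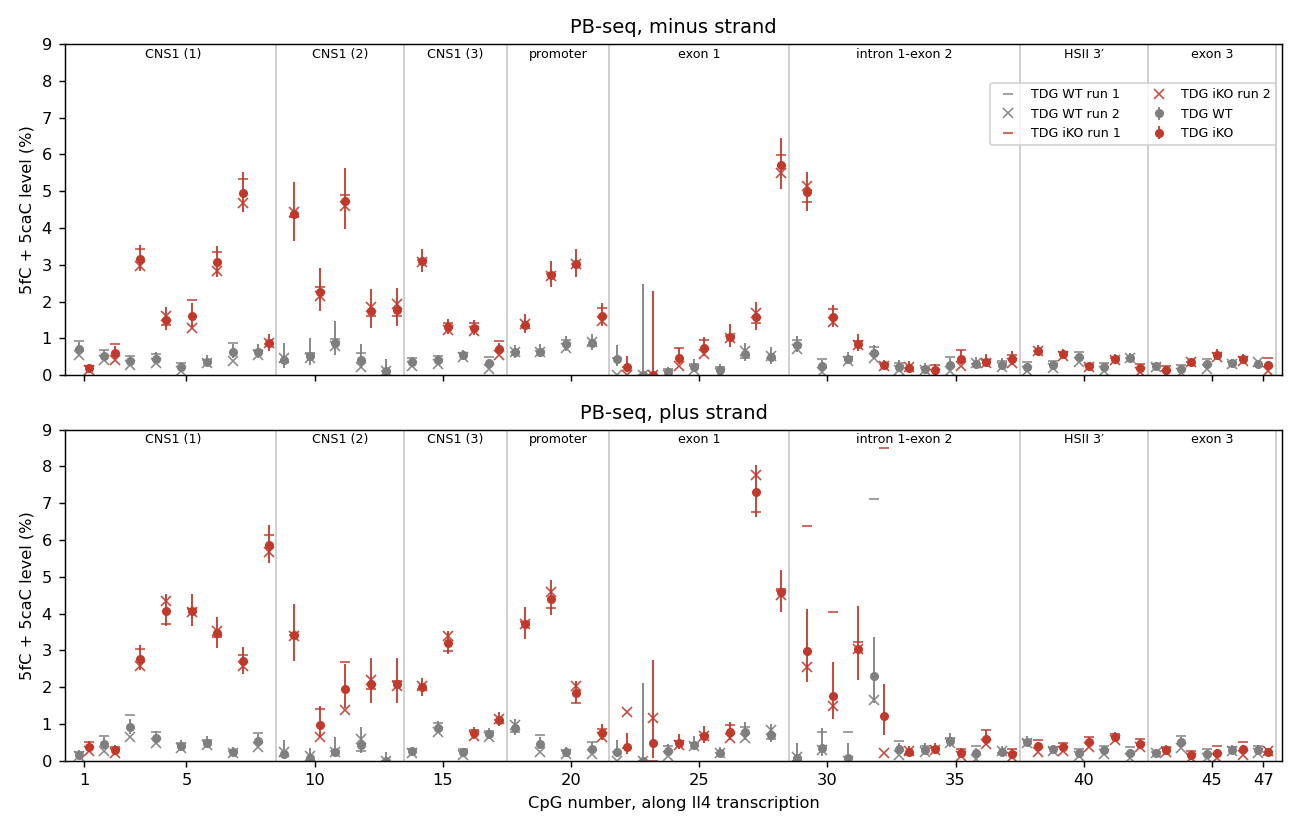
5fC + 5caC level in percent (y axis) at CpGs 1 to 47 (x axis) on the minus strand (top) and the plus strand (bottom) in TDG iKO (red) and TDG WT (grey); circles are the levels with both runs added, bars their 95% Wilson intervals, dashes run 1 and crosses run 2. TDG iKO stands above TDG WT at many of CpGs 3 to 31, up to 5.72% on the minus strand (CpG28) and 7.30% on the plus strand (CpG27), while the libraries lie close together over CpGs 33 to 47.

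CNS1 held the largest group of called CpGs, 11 of its 17 on the minus strand and 12 of 17 on the plus strand, and 13 on either. In the first CNS1 amplicon (CpGs 1 to 8) the minus-strand mean was 2.18% and 1.85% in the TDG iKO runs against 0.623% and 0.370% in the TDG WT runs. Plus-strand means were 3.02% and 2.90% against 0.629% and 0.358%. The mean difference with runs added was 1.51 points on the minus strand and 2.47 points on the plus strand, and the called CpGs were CpGs 3 to 8. With run 1 alone the minus-strand call of CpG4 was lost. CpG8 had the highest level of this amplicon, on the plus strand, with 6.13% and 5.67% in the TDG iKO runs and 0.743% and 0.363% in the TDG WT runs. Its rise of 5.34 points (4.80 to 5.90) had an adjusted p of 7.25e-92 by Fisher's exact test, the smallest of the strand. On the minus strand the same CpG read 0.866% in TDG iKO and 0.620% in TDG WT and was not called. CpG7 was the highest on the minus strand, at 5.32% and 4.67% in the TDG iKO runs against 0.868% and 0.393%, a rise of 4.34 points (3.78 to 4.93). CpG3 rose by 2.79 points on the minus strand (2.42 to 3.17) and CpG6 by 2.70 points (2.26 to 3.17). On the plus strand CpG5 rose by 3.67 points (3.21 to 4.15) and CpG4 by 3.45 points (2.99 to 3.94), and CpG6 by 2.96 points (2.54 to 3.42). The outermost pair of CpGs behaved otherwise. CpG1 read 0.191% in TDG iKO and 0.711% in TDG WT on the minus strand, a difference of −0.520 points (−0.729 to −0.325) that stayed under the minimum, and 0.369% and 0.171% on the plus strand, a difference of 0.199 points (0.0244 to 0.389). CpG2 differed by 0.0743 points on the minus strand and by −0.173 points on the plus strand, with intervals that include 0.

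In the second CNS1 amplicon (CpGs 9 to 13) all 5 CpGs were called on the minus strand and 4 on the plus strand. The minus-strand mean was 2.96% and 2.99% in the TDG iKO runs against 0.540% and 0.414% in the TDG WT runs. For the plus strand it was 2.33% and 1.94% against 0.137% and 0.234%. The mean difference of 2.21 points over both strands was the largest of the 8 amplicons. CpG11 was the highest on the minus strand, with 4.90% and 4.60% against 0.981% and 0.801%, a rise of 3.85 points (2.89 to 4.81). CpG9 read 4.30% and 4.44% against 0.369% and 0.468% on the minus strand, and rose by 3.96 points there (3.10 to 4.86) and by 3.22 points on the plus strand (2.44 to 4.09). At CpG13 no T was read on the plus strand of TDG WT, which allows a level of up to 0.189%, while TDG iKO read 2.16% and 2.04% in its runs. This amplicon was covered less deeply than its neighbours, with a median of 3250.5 reads per position in TDG WT, the library with fewer reads there. The minus-strand call of CpG12, at 1.32 points, was lost with run 1 alone, at 0.987 points. CpG10 differed by 0.918 points on the plus strand (0.470 to 1.44) and was not called, but was called with run 1 alone, at 1.41 points.

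The third CNS1 amplicon (CpGs 14 to 17) had the deepest coverage of CNS1 and smaller rises. Over both strands its mean was 1.72% and 1.66% in the TDG iKO runs against 0.571% and 0.379% in the TDG WT runs. CpG14 was called on both strands and had the smallest adjusted p of the minus strand (2.48e-68, Fisher's exact test), with 3.12% and 3.08% in the TDG iKO runs against 0.470% and 0.263%. Its rise was 2.74 points (2.42 to 3.07). CpG15 was called on the plus strand alone, where it rose by 2.32 points (1.97 to 2.67). Its minus-strand difference of 0.902 points (0.676 to 1.14) missed the minimum. CpG16 and CpG17 were higher in TDG iKO by 0.385 to 0.744 points on either strand and were not called.

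All 4 promoter CpGs were higher in TDG iKO on both strands, and 3 were called. The minus-strand mean was 2.23% and 2.14% in the TDG iKO runs against 0.767% and 0.724% in the TDG WT runs. The plus-strand values were 2.59% and 2.75% against 0.568% and 0.399%. CpG19 read 4.15% and 4.60% on the plus strand of TDG iKO against 0.707% and 0.244%, and rose by 3.96 points there (3.47 to 4.46) and by 2.09 points on the minus strand (1.70 to 2.50). CpG20 was the highest promoter CpG on the minus strand, at 3.03% and 3.01% against 0.953% and 0.750%, and rose by 2.17 points (1.76 to 2.61). CpG18 was called on the plus strand only, with a rise of 2.84 points (2.36 to 3.33), and differed by 0.749 points on the minus strand (0.446 to 1.07). CpG21, the promoter CpG closest to the transcription start, differed by 0.749 points on the minus strand and 0.419 points on the plus strand.

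Exon 1 held both the strongest rises of the locus and CpGs with little signal. CpG27, in the coding part of exon 1, had the highest level of all positions, on the plus strand, with 6.77% and 7.76% in the TDG iKO runs against 0.921% and 0.609% in the TDG WT runs. The rise was 6.53 points (5.80 to 7.29), from 37 T reads of 9558 reads in TDG WT to 385 of 10163 in TDG iKO. The minus-strand rise of CpG27 was 1.00 point (0.558 to 1.47), the smallest called, and its call was lost with run 1 alone. CpG28, 12 bases further along the exon, was the highest CpG of the minus strand, with 5.97% and 5.50% against 0.473% and 0.512%, a rise of 5.22 points (4.51 to 5.98). It also rose on the plus strand, by 3.87 points (3.27 to 4.51). The other exon 1 CpGs stayed below these. CpG24, CpG25 and CpG26 read between 0.477% and 1.03% in TDG iKO over both strands, with differences of 0.218 to 0.896 points that were not called. CpG22 differed by −0.230 points on the minus strand and 0.146 points on the plus strand. These values rest mostly on run 1, which gave 4429 of its 4558 minus-strand reads in TDG iKO. CpG23, in the untranslated part, had the lowest depth of the locus with the runs added. No T was read on its minus strand, which allows up to 1.82% in TDG iKO (329 reads) and up to 1.97% in TDG WT (304 reads).

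Rises were called as far as CpG31 in intron 1 and not beyond it. CpG29 read 4.70% and 5.15% on the minus strand of TDG iKO against 0.966% and 0.703% in TDG WT, a rise of 4.15 points (3.59 to 4.73). CpG30 rose by 1.34 points on the minus strand (1.02 to 1.68). It rose by 1.41 points on the plus strand (0.584 to 2.37), a call that was lost with run 1 alone. Plus-strand reads of this stretch were few in run 1, with 243 at CpG29 in TDG iKO against 2010 in run 2. CpG29 read 6.37% in run 1 and 2.55% in run 2 there, against 0% (251 reads, which allows up to 2.38%) and 0.0985% in TDG WT, and rose by 2.89 points with the runs added (1.95 to 4.04). CpG31 rose on the plus strand by 2.96 points (2.02 to 4.13), from 1 T read to 35, a call that was lost with run 1 alone, and its minus-strand difference was 0.423 points (0.147 to 0.713). The mean difference of the amplicon over CpGs 29 to 37 was 0.652 points on the minus strand (0.609 and 0.692 in the runs) and 0.680 points on the plus strand (1.47 and 0.589), while its pooled reads gave 0.755 points (0.649 to 0.865) and 0.196 points (0.0943 to 0.300). From CpG33 to CpG37, at the end of intron 1 and in exon 2, levels lay between 0.143% and 0.602% in TDG iKO and between 0.174% and 0.543% in TDG WT. Differences at these 5 CpGs ran from −0.342 to 0.398 points.

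The 3′ region of HSII and exon 3 stayed near the TDG WT level. Over both strands the HSII mean was 0.534% and 0.376% in the TDG iKO runs and 0.418% and 0.241% in the TDG WT runs. The difference of 0.120 points was smaller than that between the runs of either library. Run 1 exceeded run 2 in both libraries, and within runs TDG iKO was higher by 0.116 points (run 1) and 0.135 points (run 2). The pooled reads of the amplicon gave a difference of 0.125 points (0.0783 to 0.173). At 261823 reads in TDG iKO, added over 10 strand-specific positions, a mean rise of 1 point lay outside this counting interval. Neighbouring CpGs were read on the same molecules, whereas the interval treats their reads as independent. At the single CpGs 38 to 42 differences ran from −0.284 to 0.426 points. Exon 3 gave 0.395% and 0.221% in the TDG iKO runs and 0.362% and 0.218% in the TDG WT runs. Its pooled difference was 0.0152 points (−0.0298 to 0.0603), and CpGs 43 to 47 differed by −0.332 to 0.244 points.

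Cytosines outside CpGs gave the background of the assay in the same reads. Their median level was 0.234% in TDG iKO and 0.238% in TDG WT over 321 cytosines of the minus strand. Over 300 of the plus strand it was 0.235% and 0.221%. The medians of the libraries thus lay close together outside CpGs. At 0 of the 321 minus-strand cytosines and 1 of the 300 plus-strand cytosines (0.333%) was TDG iKO called higher, and none was called lower. With either run alone that 1 cytosine was not called. Without the minimum of 1 point 19 were higher and 29 lower on the minus strand, and 15 higher and 18 lower on the plus strand. Differences under 1 point with an adjusted p under 0.05 therefore occurred in both directions at cytosines outside CpGs too, and those at CpGs are given as values only. Of the 30 CpGs not called on the minus strand, 14 were higher and 4 lower in this way. Of the 27 on the plus strand, 10 were higher and 2 lower. These shares were not tested against those outside CpGs. In TDG iKO 30 CpGs of the minus strand and 24 of the plus strand exceeded the highest non-CpG cytosine of their own amplicon and strand, against 8 and 8 in TDG WT. On the plus strand of intron 1 and exon 2 the highest non-CpG cytosine read 10.7% at position 53431797 in TDG iKO. In TDG WT it was another, at position 53431790, with 10.7%. Each lay above every CpG, so 0 of the 9 CpGs there could be counted. In run 2 of TDG iKO the highest read 1.64%, below CpG29 (2.55%) and CpG31 (3.03%). In the promoter all 4 minus-strand CpGs of TDG WT exceeded the highest non-CpG cytosine, at 0.618% to 0.871%.

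A stretch of intron 1 stood apart from the rest of the background. On the plus strand 11 non-CpG cytosines at chr11:53431786-53431798 exceeded 2% in at least 1 library, up to 10.7% in TDG iKO and 10.7% in TDG WT. The other 610 reached at most 1.20% in TDG iKO and 0.968% in TDG WT. Levels in the stretch reached 17.6% in run 1 and 1.64% in run 2 of TDG iKO, and 14.4% and 6.52% in the TDG WT runs. Run 2 held few reads at its first cytosines, with 29 at position 53431786 in TDG iKO. CpG32 adjoins this stretch. On the plus strand CpG32 read 8.49% in run 1 of TDG iKO (11 T in 248 reads) and 0.213% in run 2 (2 T in 1873 reads). In TDG WT it read 7.11% (9 T in 244 reads) and 1.66% (16 T in 1913 reads). With the runs added the libraries differed by −1.07 points (−2.26 to 0.0541, adjusted p of 0.101 by Fisher's exact test), and with run 2 alone TDG iKO was called lower, at −1.45 points. It was the only CpG called between the runs of a library, on the plus strand in either genotype (1 of 47 each, 2.13%), against 0 of 47 on the minus strand in either. Run 1 exceeded run 2 of the same library at 34 to 39 of the 47 CpGs in each library and strand, by a median of 0.103 to 0.180 points. CpG32 is shown here with its 22 bases on the minus strand, CpG in capitals, because its G-rich side lies over that stretch.
CpG32 (chr11:53431789-53431810): gggagtctccCGggtggggggt

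The next question was whether the strands of a CpG carried the same level in TDG iKO. They often did not. By Fisher's exact test, two-sided and adjusted over the 47 CpGs, the minus strand was called higher at 7 CpGs (14.9%) and the plus strand at 8 (17%), each by at least 1 point. At CpG27 the minus strand read 1.42% and 1.70% in the runs and the plus strand 6.77% and 7.76%, a difference of −5.73 points (minus less plus). CpG8 had 0.866% on the minus strand and 5.87% on the plus strand. In the other direction CpG11 differed most, with 4.73% on the minus strand and 1.95% on the plus strand. In TDG WT the largest difference between the strands was 0.733 points when CpG32 is left out. At 14 of the 15 called CpGs both runs gave the same direction, and the exception was CpG29, with −1.67 points in run 1 and 2.60 in run 2. With run 1 alone 4 CpGs were called with the higher minus strand, and with run 2 alone 5. Over the 47 CpGs the difference between TDG iKO and TDG WT on the minus strand and that on the plus strand had a Pearson r of 0.552 (Spearman rho of 0.742), a description in which points share the libraries and neighbouring CpGs the reads.

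**Figure D2:**
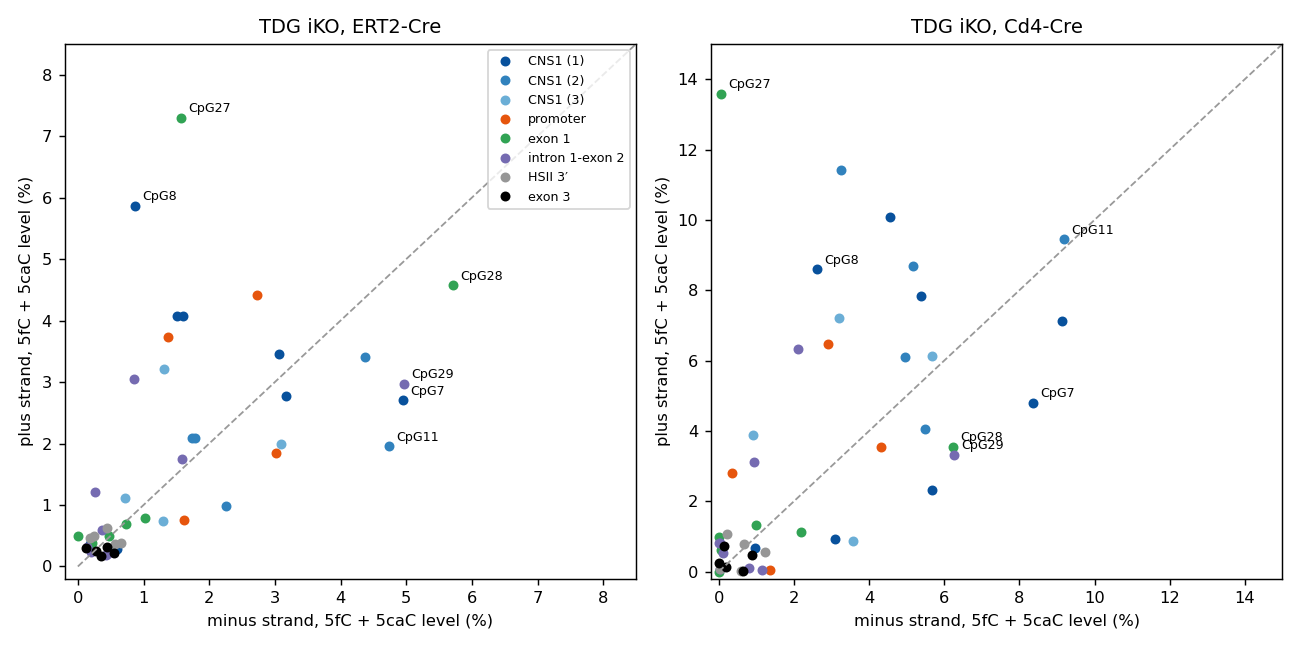
5fC + 5caC level of the plus strand (y axis, percent) against that of the minus strand (x axis, percent) for the 47 CpGs of TDG iKO with ERT2-Cre (left) and with Cd4-Cre (right, on a longer scale), coloured by amplicon; the dashed line marks equal levels. CpG27 and CpG8 lie far above the line and CpG11 below it with ERT2-Cre.

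The base before the CpG was then read for these CpGs. Of the 7 CpGs with the higher minus strand, 5 had A just before the CpG on the minus strand, as had 17 of all 47. Of the 8 with the higher plus strand, 5 had T there, so that on the plus strand A followed the CpG, as had 15 of all 47. The 15 sequences are given 5′ to 3′ on the minus strand (mm9) with the CpG in capitals, so that the flanking bases can be compared. The higher minus strand was found at
CpG7 (chr11:53440591-53440612): tggcttgcaaCGaactttccca
CpG10 (chr11:53440530-53440551): cgaagccactCGaaatcccaga
CpG11 (chr11:53440502-53440523): tttctacttaCGacctcacttt
CpG14 (chr11:53440368-53440389): tcagaggtgaCGcaggcaccaa
CpG20 (chr11:53432436-53432457): ggcaaccctaCGctgataagat
CpG28 (chr11:53431984-53432005): gcattttgaaCGaggtcacagg
CpG29 (chr11:53431912-53431933): actgctggggCGattctaggct
and the higher plus strand at
CpG4 (chr11:53440629-53440650): attcatttctCGgctccaccca
CpG5 (chr11:53440613-53440634): cacccaaaagCGacagagcgca
CpG8 (chr11:53440564-53440585): actgatttctCGgcagccaggg
CpG15 (chr11:53440337-53440358): tagcaaacctCGtcatctccgc
CpG18 (chr11:53432505-53432526): ttccccagggCGacaccagcac
CpG19 (chr11:53432490-53432511): ccagcaccctCGgacacctgtg
CpG27 (chr11:53431996-53432017): gagagatcatCGgcattttgaa
CpG31 (chr11:53431868-53431889): ggtggacggaCGgcaggtggct

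Read over both strands, so that each CpG counts once per strand in its own direction, A followed the CpG at 31 positions, of which 16 were called higher in TDG iKO, with a median difference of 1.32 points. C followed at 16 positions, with 8 called and a median of 1.20 points. T followed at 22, with 9 called and a median of 0.461 points. G followed at 25, of which 4 were called, with a median of 0.199 points. The strands differed in this: T followed at 5 positions of the minus strand with 0 called and at 17 of the plus strand with 9 called, and G at 18 with 4 called and at 7 with 0. C preceded the CpG at 25 positions, of which 6 were called, with a median of 0.289 points. On the minus strand these were 0 of 7 and on the plus strand 6 of 18, against 17 and 20 of 47 over all CpGs. The base, the amplicon and the position in the locus vary together over these few CpGs, and their parts were not tested. Of the motifs searched on both strands of the 22 bases, GATA, the letters read by GATA3, occurred at 2 of the 47 CpGs (4.26%), CpG20 and CpG25, of which CpG20 was called. GGAAA, part of NFAT sites, occurred at CpG7 and CpG12, 2 of 47 (4.26%), both called, next to 21 of 47 called on either strand over all CpGs. TGANTCA, the letters of AP-1 sites, and the STAT6 motif of TTC and GAA with 4 bases between them occurred at 0 of 47, which says only that these letters are not in these windows.

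The difference in 5fC + 5caC between TDG iKO and TDG WT was then set beside 5mC + 5hmC of the same CpGs, measured by bisulfite sequencing (BS-seq) of other libraries, those of Th2 cells all from the first cycle, in which C marks 5mC or 5hmC. As the mean of both strands, a choice made after seeing the data, it was larger at CpGs where 5mC + 5hmC was lower in TDG WT Th2 cells than in naïve T cells by more points (Pearson r of 0.813, Spearman rho of 0.770, 46 CpGs). It was also larger at CpGs where TET iTKO Th2 cells, which lack the 3 TET enzymes after deletion with ERT2-Cre, had more 5mC + 5hmC than TET WT cells (0.916 and 0.866, 47 CpGs). For the minus strand alone, which BS-seq amplified, the values were 0.714 and 0.669 against the naïve cells and 0.778 and 0.807 against TET iTKO. BS-seq reads 5fC and 5caC as T, like unmodified C, so a lower 5mC + 5hmC level does not tell these apart. The minus-strand 5fC + 5caC difference tended to be larger where TDG iKO had less 5mC + 5hmC relative to TDG WT. Against the BS-seq difference between TDG iKO and TDG WT, r of the minus-strand difference was −0.548 (rho of −0.650, 47 CpGs). It was −0.308 (rho of −0.536) with only the BS-seq library of the same date as the PB-seq library. These are descriptions across CpGs of the same libraries, and neighbouring CpGs were read on the same molecules. CpG28 had 48.2 points less 5mC + 5hmC in TDG WT than in naïve cells and 51.9 points more in TET iTKO than in TET WT, beside a 5fC + 5caC difference of 4.55 points as the mean of its strands. Its 2 TET iTKO libraries lay far apart, at a mean of 77.3% with an SD of 19.7 points. The values for CpG29 were 52.7, 59.6 and 3.52 points. At the other end exon 3 had a mean of 0.0722 points less in TDG WT than in naïve cells and a 5fC + 5caC difference of 0.0134 points. The HSII 3′ region did not follow this order. Its 5mC + 5hmC was lower in TDG WT than in naïve cells by a mean of 21.8 points, next to 21.4 points in exon 1, 9.17 points in the third CNS1 amplicon and 15.1 points in the promoter. Its 5fC + 5caC difference was 0.120 points, against 1.42, 1.21 and 1.82 points in these regions. TET iTKO exceeded TET WT by 10.6 points in the HSII 3′ region, and by 24.8, 21.2 and 30.0 points in the others. In intron 1 and exon 2 these differences were 15.9 points (naïve cells), 0.666 points (5fC + 5caC) and 18.9 points (TET). CpG32 in that amplicon also fell outside the order. It had 18.3 points less 5mC + 5hmC than naïve cells and a 5fC + 5caC difference of −0.705 points, and its plus strand adjoins the stretch of high background. Without the HSII 3′ region, a choice made after seeing the data, r of the minus-strand difference with that from naïve cells was 0.771 over 41 CpGs.

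**Figure D3:**
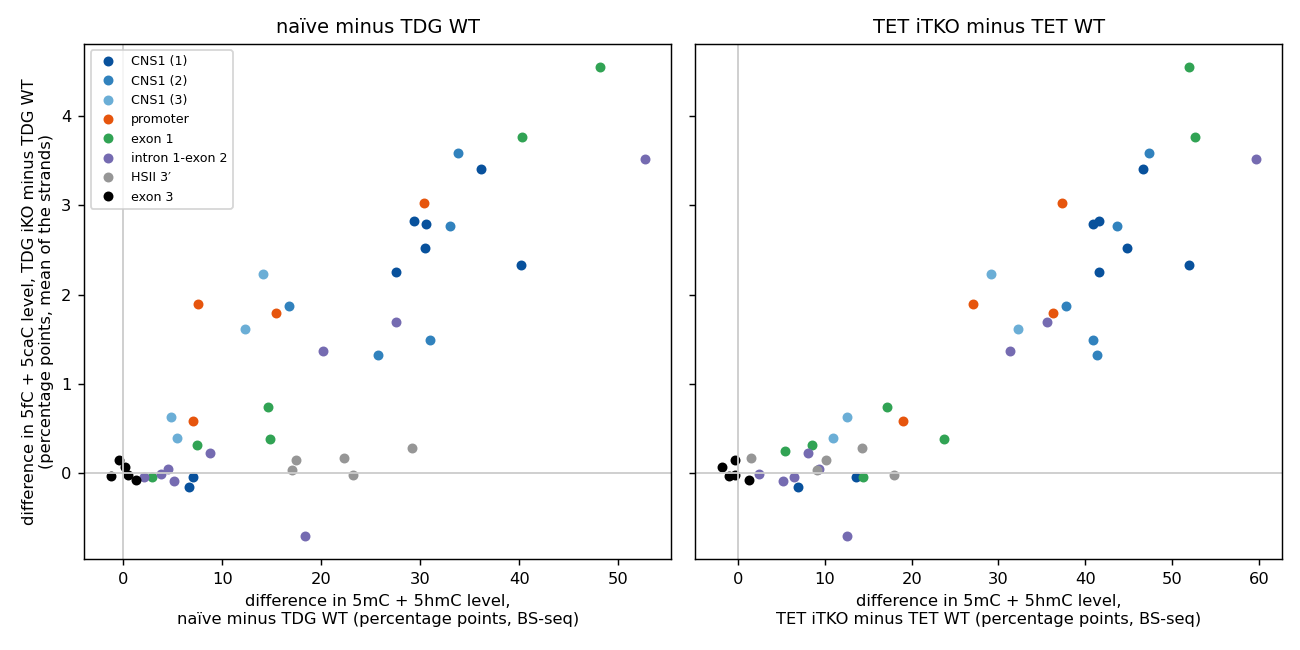
Difference in 5fC + 5caC between TDG iKO and TDG WT, as the mean of the strands in points (y axis), against the BS-seq difference in 5mC + 5hmC in points between naïve and TDG WT cells (left, 46 CpGs) and between TET iTKO and TET WT cells (right, 47 CpGs); each point is a CpG, coloured by amplicon. The 5 grey CpGs of the HSII 3′ region lie near 0 on the y axis in both panels, at 17.1 to 29.1 points between naïve and TDG WT cells.

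Deletion of Tdg with Cd4-Cre, which is active in developing T cells, gave a further pair of PB-seq libraries of first-cycle Th2 cells (2 of the 41 samples). They held 720910 reads at these positions in TDG iKO and 1144791 in TDG WT. They were made in another batch, with conversion by pyridine borane measured separately, so their levels are set beside the others without a test of the difference in size. Deletion by Cd4-Cre starts before the cells are naïve, whereas tamoxifen acts in the adult mouse. Of the CpGs called with ERT2-Cre, 14 of 17 on the minus strand and 20 of 20 on the plus strand were higher by at least 1 point in TDG iKO with Cd4-Cre. Of those not called, 9 of 30 and 4 of 27 were. The exceptions among called CpGs were CpG20, CpG27 and CpG30 on the minus strand, with 0.279, −0.0133 and 0.855 points. On that strand CpG1, below TDG WT with ERT2-Cre, was higher by 0.918 points with Cd4-Cre. Over both strands the amplicon means differed by 4.76, 6.50 and 3.53 points in the CNS1 amplicons with Cd4-Cre, against 1.99, 2.21 and 1.21 points with ERT2-Cre. The drivers lay closer in the promoter (2.49 points with Cd4-Cre against 1.82) and exon 1 (1.80 against 1.42). Intron 1 and exon 2 gave 1.27 against 0.666 points. The HSII 3′ region (0.234 points) and exon 3 (0.121 points) again had the smallest differences. Across the 47 CpGs the differences with either Cre had a Pearson r of 0.837 (Spearman rho of 0.800) as the mean of the strands, with no library shared. The difference between the strands went the same way with Cd4-Cre at 4 of the 7 CpGs with the higher minus strand, CpG11, CpG14 and CpG20 being the exceptions. It did so at 7 of the 8 with the higher plus strand, with CpG19 as the exception. CpG27 was the most uneven with either Cre, at 0.0506% on the minus strand and 13.6% on the plus strand with Cd4-Cre.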

How the data were processed

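The authors mapped paired-end reads to mm9 with BSMAP, with 0 mismatches allowed in PB-seq reads and a quality threshold of 30 (version not given in the sources used here), and deposited, per cytosine, the count of reads with C and the count with C or T. T was taken as their difference, and C was multiplied by 0.5 as in the study's methods. Conversion by pyridine borane was measured with a spike-in, and levels were not corrected for it. BS-seq levels are means over libraries.

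Amplicons were placed by the primers and CpGs numbered from CNS1 to exon 3. The Il4 annotation was that of GENCODE for mm9. Computations used Python 3.11.15, numpy 2.4.6, scipy 1.17.1 and matplotlib 3.10.9, and the tests were tested on simulated data.

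Named are, on each strand, the 10 called CpGs with the largest rise and the 2 with the largest fall (none was called lower), the lowest and highest CpG of each amplicon, CpGs 27 to 29 and 38 to 47, and the CpGs with the largest strand difference. Of these, CpG34, CpG37 and CpGs 38 to 47 have their differences given only within ranges. Others named were chosen after their values were seen. The samples, lists and tests were chosen with earlier results of these data known.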

Additional observations from a re-analysis of the deposited data

Results flagged for a closer look

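CpG27 was the 1 called CpG with a difference below 0 with Cd4-Cre, on the minus strand. With ERT2-Cre TDG iKO was higher than TDG WT by 1.00 point there with the runs added, and it was higher in each run. With Cd4-Cre the difference was −0.0133 points. TDG iKO read 0.0506% (0.00892 to 0.286, 3955 reads) and TDG WT 0.0639% (0.0175 to 0.233, 6261 reads). These intervals overlap, so the sign of the Cd4-Cre difference is not resolved. The difference between the drivers was not tested.

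At position 53431797 of chromosome 11 (plus strand, intron 1), a cytosine outside CpGs, TDG iKO read 10.7% and TDG WT 3.48%, an adjusted p of 0.0215 by Fisher's exact test over 300 cytosines. The TDG iKO level was 17.6% in run 1 and 1.06% in run 2, and it rested on 426 reads. This cytosine lies in the stretch beside CpG32 described with the background.

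Some reads of the libraries mapped outside the Il4 amplicons. Of these base reads 10.2% were T in TDG iKO (250 of 2460) and 2.47% in TDG WT (24 of 971). The runs differed in this share: run 1 gave 21.1% in TDG iKO (186 of 882) and 16.8% in TDG WT (23 of 137), and run 2 gave 4.06% (64 of 1578) and 0.12% (1 of 834). Base reads at neighbouring cytosines come from the same few reads, and 104 of the T in TDG iKO lay in 1 stretch of run 1, at chr11:120101302-120101327, where 20.2% of 514 were T, against 20% of 40 in TDG WT. A further 63 were all the base reads of 1 stretch of run 2, at chr11:70187191-70187332, which was not read in TDG WT. The difference was not tested.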

How the results depend on the processing

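The settings tried changed 1 choice at a time, and no called difference changed sign. With the C reads not multiplied by 0.5, 10 CpGs were called higher on the minus strand in place of 17. On the plus strand 14 were called in place of 20. The mean differences were 0.538 points (minus) and 0.672 points (plus), which follows from the doubled denominator. Without a minimum difference 31 were higher and 4 lower on the minus strand, and 30 higher and 2 lower on the plus strand. A minimum of 2 points left 10 on the minus strand and 14 on the plus strand. Without a minimum, non-CpG cytosines gave 19 higher and 29 lower on the minus strand and 15 and 18 on the plus strand, and the strand comparison gave 16 CpGs with the higher minus strand and 13 with the higher plus strand. A minimum of 2 points left 2 with the higher minus strand. At a minimum of 500 reads 0 non-CpG cytosines were called higher on the plus strand. Read-weighted means differed by 0.851 points (minus) and 1.11 points (plus), and the mean of the levels of the runs by 1.40 points (plus). With only the BS-seq library of the same date, r of the minus-strand difference with the BS-seq difference between TDG iKO and TDG WT was −0.308 in place of −0.548. With the mean of both strands, chosen after seeing the data, r with the TET difference was 0.916 in place of 0.778. Leaving out either run gave 14 to 17 CpGs called higher on the minus strand and 19 to 20 on the plus strand, 0 to 1 lower on the plus strand (CpG32, without run 1), a plus-strand mean difference of 1.36 to 1.44 points, 4 to 5 CpGs with the higher minus strand and 0 to 0 non-CpG cytosines higher on the plus strand.

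With the run number as a replicate block, pairing run 1 with run 1, 17 CpGs (minus) and 20 (plus) were called higher, all of them the CpGs called without it. Without run 2 the minus-strand calls of CpG4, CpG12 and CpG27 and the plus-strand calls of CpG30 and CpG31 were lost, and CpG10 was called on the plus strand. The numbers mark runs and not mice. The deviations of run 1 from run 2 had a correlation between genotypes of 0.196 on the minus strand and 0.799 on the plus strand, or −0.0456 without CpG32. Of 549 values of the named CpGs under the settings tried, 519 kept their side of the threshold, 10 fell below it and 20 passed it. Of the 519, 13 changed sign, none of them called. The settings chosen after seeing the data were leaving out the HSII 3′ region, with or without exon 3, the plus-strand difference or the mean of both strands, and leaving out CpG32. With the runs added, depth limits CpG23 and the plus strand of CpGs 29 to 32 most. In run 2 the lowest depth was at CpG22 on the minus strand, with 129 reads in TDG iKO and 104 in TDG WT.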
